A study of Mus musculus with 8 samples.

Results

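The genes described here are 33 targets and regulators of the tumor suppressor p53, listed by symbol and grouped by their known roles. Of these, 31 were measured, among 19087 genes in all, and each is represented by the array feature with the highest mean over the 8 arrays. Fdxr and Lif were not analysed here. Messenger RNA of B splenocytes (spleen B cells) came from 4 lymphoma mice of the genotype c-myc/Cdk4(R24C) and from 4 wild type mice, with 1 Cy3 array per mouse (n = 4 in each group). All 8 mice are of the C57BL/6 strain by their labels. Cdk4 R24C is a form of the cell cycle kinase that the INK4 inhibitors cannot bind, and the study combined it with c-myc to model blastoid mantle cell lymphoma. The sources used here do not give the promoter that drives c-myc, the purification of the cells or the ages of the mice. Slide 1 carried lymphoma 1 and 2 with wild type 1 and 2, and slide 2 carried lymphoma 3 and 4 with wild type 3 and 4.

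The p53 protein is a transcription factor that is kept scarce by the ubiquitin ligase Mdm2 and held inactive by its relative Mdm4. DNA damage and strong oncogene signals, Myc among them, free p53 to turn on genes that halt the cell cycle, repair DNA, change metabolism or kill the cell. Several of these targets, Mdm2 and Ppm1d included, act back on p53 and close a feedback loop. In mouse B cells that carry an active Myc transgene this pathway is known as a barrier that lymphomas often lose.

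Levels below are log2 intensities after the arrays were brought to a common 75th percentile, and differences are lymphoma minus wild type on that scale, from limma fitted across all 33709 features with a listed gene. A level is comparable between arrays for 1 gene and not between genes. An adjusted p under 0.05 (Benjamini-Hochberg) counts as passing the test. The 75th percentiles of the deposited values lay within 0.215 of each other, and between 50.2% and 52.9% of features exceeded the background bound, a level set per array from features for olfactory and vomeronasal receptors. On the first principal component over all features, wild type 1 scored -25.0, the other wild type arrays between 47.5 and 94.2 and the lymphoma arrays between -52.7 and -40.6, so values without wild type 1 stand beside the results below. Wild type 2 stood apart as well: its score on the second component was 75.04, against -55.5 and -49.5 for wild type 3 and 4, and limma gave it the lowest array weight, 0.318, below the 0.499 of wild type 1. Of 6 measured B cell markers 0 passed. Cd79b lay between 15.70 and 16.19 in lymphoma and between 15.51 and 15.99 in wild type, while Cd22 differed by -1.03 with groups that did not overlap (adjusted p 0.0854) and Pax5 by -0.60. Of 6 T cell markers 0 passed. Cd4 was at background on 8 arrays and Cd3e on 7, but Cd3d and Cd3g were above it on all, and Cd3g was highest in wild type 1, at 10.65. Some markers of 3 other cell types fell. Of 6 macrophage and monocyte markers Mpeg1, Fcgr1, C1qa and Lyz2 fell, and the summed log2 level ran from 13.52 to 13.93 in lymphoma and from 14.71 to 15.35 in wild type. Of 4 plasma cell markers Jchain and Sdc1 fell, with sums from 11.90 to 13.99 in lymphoma and from 14.05 to 16.32 in wild type. Of the fits that left out 1 array, both calls held only in those without lymphoma 2 or wild type 1. The Jchain call (limma adjusted p 0.0403) also ended with trend and robust estimation (0.140) and with quantile normalization (0.0582). It ended as well with the slide as a block (0.0566) and with the mean of its features (0.0915). Of 5 granulocyte markers S100a8 fell, with sums from 10.54 to 12.26 in lymphoma and from 12.70 to 14.09 in wild type. The S100a8 call ended without wild type 3 (limma adjusted p 0.0528) or wild type 4 (0.0574). The part of these markers in the values of the p53 genes was not tested. The arrays measure the whole preparation, in which fewer cells of a type and less RNA per cell cannot be told apart.

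Promoter windows from RefSeq (build GRCm38.p6, from 250 bases before to 50 bases after the transcription start) were held for 25 of the 31 genes, in 34 windows. Those of 4 genes are printed because the results turn on them: Phlda3 had the largest positive difference, Gadd45a the largest negative one in the cell cycle arm, Btg2 is a gene on which wild type 1 stood far from the other controls, and Mdm2 is the central regulator. Capitals mark matches to the p53 half-site consensus, which reads the same on both strands. The windows lie at chr1:135765835-135766134 on the plus strand for Phlda3, chr6:67037358-67037657 on the minus strand for Gadd45a, chr1:134079106-134079405 on the minus strand for Btg2 and chr10:117710709-117711008 on the minus strand for Mdm2.
Phlda3: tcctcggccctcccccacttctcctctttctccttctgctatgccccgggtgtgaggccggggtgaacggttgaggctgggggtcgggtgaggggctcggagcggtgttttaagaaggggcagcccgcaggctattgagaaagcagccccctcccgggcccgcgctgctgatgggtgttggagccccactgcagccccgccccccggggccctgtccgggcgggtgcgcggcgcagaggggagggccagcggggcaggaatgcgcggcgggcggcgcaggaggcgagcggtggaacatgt
Gadd45a: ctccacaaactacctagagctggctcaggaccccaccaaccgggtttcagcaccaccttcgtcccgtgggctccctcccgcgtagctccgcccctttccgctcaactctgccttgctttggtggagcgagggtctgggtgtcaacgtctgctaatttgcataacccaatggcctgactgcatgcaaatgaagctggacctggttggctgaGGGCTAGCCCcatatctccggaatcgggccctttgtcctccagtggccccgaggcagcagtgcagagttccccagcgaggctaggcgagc
Btg2: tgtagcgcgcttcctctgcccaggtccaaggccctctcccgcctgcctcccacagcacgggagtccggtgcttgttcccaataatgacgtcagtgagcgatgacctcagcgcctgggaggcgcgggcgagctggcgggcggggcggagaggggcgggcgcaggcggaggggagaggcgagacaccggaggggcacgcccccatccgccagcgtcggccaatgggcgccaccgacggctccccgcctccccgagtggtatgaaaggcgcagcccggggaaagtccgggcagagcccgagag
Mdm2: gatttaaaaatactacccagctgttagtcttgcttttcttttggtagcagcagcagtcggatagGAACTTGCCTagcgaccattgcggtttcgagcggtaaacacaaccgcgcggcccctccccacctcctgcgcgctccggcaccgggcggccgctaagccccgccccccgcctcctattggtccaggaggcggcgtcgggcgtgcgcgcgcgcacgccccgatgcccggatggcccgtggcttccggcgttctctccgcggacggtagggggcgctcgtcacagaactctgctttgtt
The Gadd45a match begins 40 bases before the start and the Mdm2 match 186 bases before it, and the Phlda3 and Btg2 windows hold none. A half-site match was present in 10 of the 34 windows (29.4%), which belong to 9 genes, against 8.36% of 32851 windows of all genes. The E-box CACGTG, a sequence bound by Myc with Max and also its own reverse complement, was present in 2 of the 34 windows (5.88%), those of Aen and Eda2r, against 7.15% of all windows. A match of this kind is a description of the letters in the window, and windows of other genes named below, such as Zmat3 and Ddb2, were not used here.

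With all 8 arrays, 0 of the 31 genes passed the test in limma, against 2.09% of all 19087 genes (0 higher, against 0.817%, and 0 lower, against 1.27%). All 31 exceeded the background bound on at least 1 array, against 69.0% of all genes, and 23 did so on all 8. The genes differed in both directions: 18 had a positive difference (58.1%, against 56.7% of all genes) and 13 a negative one, and the median was 0.14 on the log2 scale, beside 0.06 over all genes. Differences ran from -1.75 for Pltp to 2.12 for Phlda3. At an unadjusted p under 0.05 in limma there were 9 of 31 genes (29.0%), 7 lower and 2 higher in lymphoma, against 15.9% of all genes. The 4 lymphoma values lay entirely below the 4 wild type values for 4 genes (12.9%), namely Gadd45a, Ddb2, Pltp and Cd82, against 5.55% of all genes, and entirely above them for 0 genes, against 4.43%. A difference of at least 1 in either direction was found for 6 of 31 genes (19.4%) and for 6.89% of all genes. The shares of all genes include 5921 genes at background on all 8 arrays, and 0 of the 31 were so. With the brighter 50% of features, 9 of 28 members and 2237 of 10311 genes had an unadjusted p under 0.05 in limma. The members were chosen with earlier results of these data known, so these shares are no test of the list.

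Leaving out wild type 1 brought 8 of the 31 genes past the threshold. The genes lower in lymphoma in that fit were Gadd45a, Btg2, Plk2, Plk3, Ddb2 and Pltp, 6 of 31 (19.4%) against 3.87% of all genes, and those higher were Zmat3 and Phlda3, 2 of 31 (6.45%) against 4.28%. For 7 of these 8 genes, all but Gadd45a, wild type 1 was nearer the lymphoma mean than the mean of the other controls. That was so for 20 of the 31 genes (64.5%) and for 57.4% of all genes. Because leaving out an array that lies near the other group widens differences, the 8 calls describe the contrast with wild type 2 to 4 and are no separate support. Leaving out any of the other 7 arrays gave 1 call at most, that of Gadd45a without wild type 2.

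**Figure D1:**
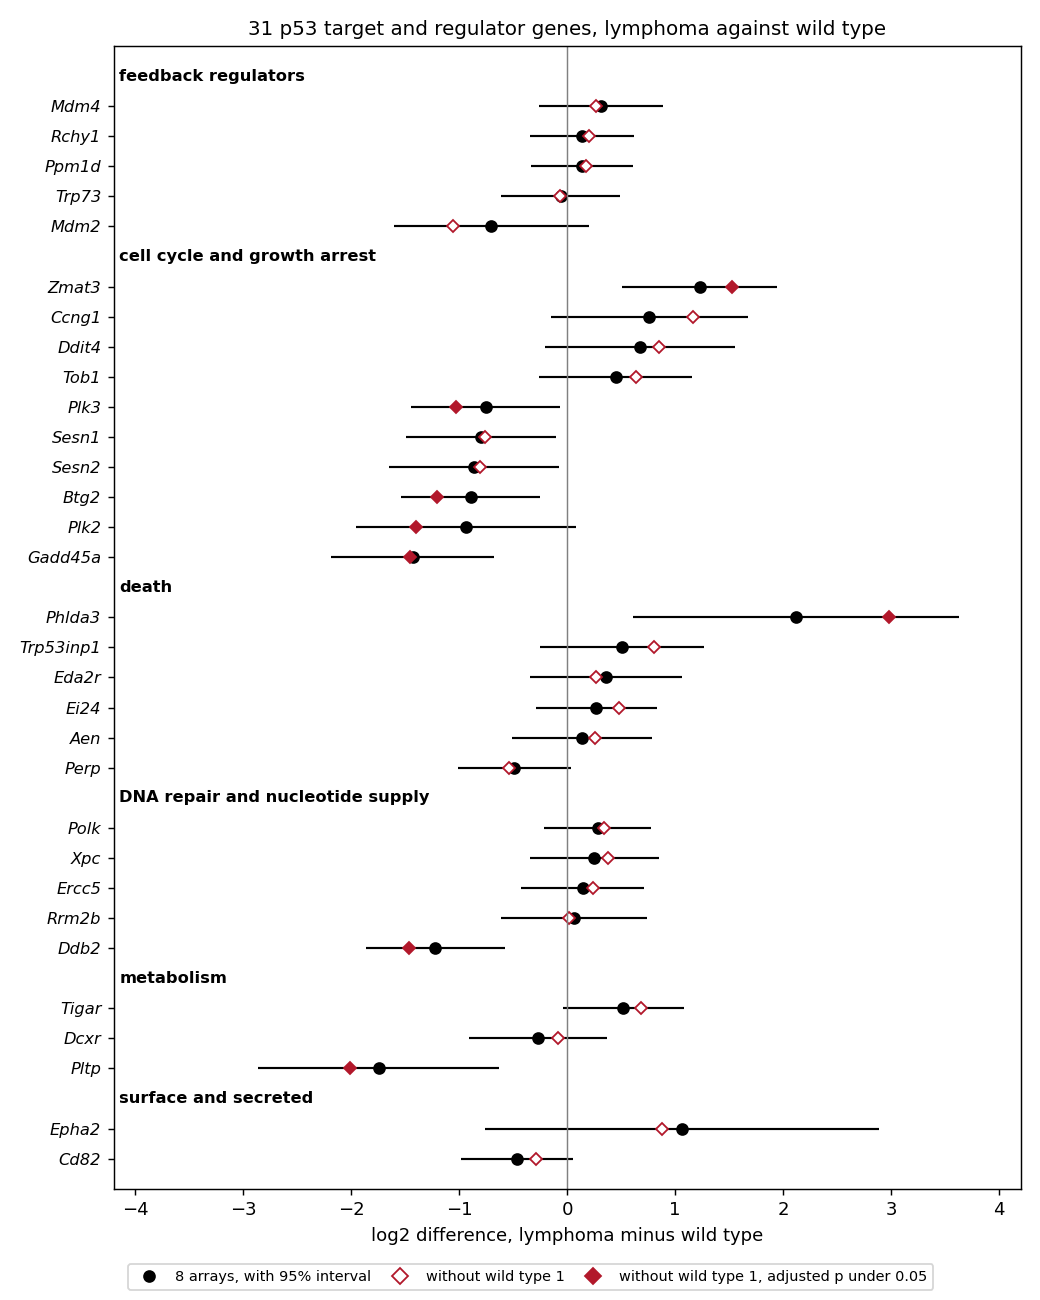
Log2 difference, lymphoma minus wild type, for each of the 31 genes, grouped by role. Black circles and lines give the limma estimate from 8 arrays with its 95% interval, and diamonds give the estimate without wild type 1, filled where the adjusted p was under 0.05. Differences run from -1.75 for Pltp to 2.12 for Phlda3, and 8 diamonds are filled.

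Among the regulators that act on p53 itself, 0 of 5 passed with or without wild type 1. Mdm2, the ligase that marks p53 for destruction and is itself a p53 target, measured 8.87, 8.99, 10.28 and 9.93 in lymphoma 1 to 4, against 9.16, 10.18, 10.96 and 10.57 in wild type 1 to 4. The groups overlapped, and lymphoma 1 and 2 were the lowest arrays. The difference was -0.70 ± 0.41 (SE, n = 4 in each group; 95% interval -1.61 to 0.20; limma adjusted p 0.472), and -1.05 without wild type 1 (adjusted p 0.124). The brightest Mdm2 feature, which gave these values, followed the slide as well. On this feature the arrays of slide 2 averaged 1.18 more than those of slide 1 in lymphoma and 1.09 more in wild type. Within slide 1 its difference was -0.74 and within slide 2 it was -0.66. The other Mdm2 features did not show gaps of this size between slides in either group. They were dimmer, with means between 7.63 and 8.29 in lymphoma and between 7.86 and 8.64 in wild type. All 11 Mdm2 features had negative differences, between -0.70 and -0.10, with a lowest adjusted p of 0.312. They are annotated to the same transcript, and the sources used here do not say whether some are repeated spots of 1 probe.

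Mdm4, which binds p53 and blocks its activity, measured 10.64, 11.83, 11.18 and 10.99 in lymphoma, against 10.70, 10.79, 11.08 and 10.81 in wild type. Lymphoma 2 was the highest array and lymphoma 1 the lowest, so the lymphomas spanned the controls. The difference was 0.32 ± 0.26 (SE; 95% interval -0.26 to 0.89; limma adjusted p 0.629). Ppm1d, the phosphatase Wip1 that switches off p53 and its kinases after damage, measured 10.06, 9.996, 9.59 and 9.67 in lymphoma, against 9.81, 9.39, 9.68 and 9.91 in wild type. The groups overlapped, with lymphoma 1 and 2 above every control and wild type 2 below every lymphoma, and the 95% interval of the difference was -0.34 to 0.61. Rchy1, a second ubiquitin ligase of p53, differed by 0.14 with an interval of -0.34 to 0.62. Trp73, the p53 relative p73, lay at background on 3 arrays of each group and differed by -0.06. For these 4 genes the intervals leave room for differences of up to 0.89 in size.

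In the cell cycle and growth arrest arm, 6 of 10 genes were lower in lymphoma by value and 4 higher, with a median of -0.78. Gadd45a, a stress sensor that binds PCNA and cyclin-dependent kinase complexes, measured 9.42, 9.71, 10.19 and 10.07 in lymphoma, against 11.20, 10.27, 11.99 and 11.64 in wild type. The groups did not overlap, although wild type 2 lay only just above lymphoma 3. The difference was -1.43 ± 0.35 (SE; limma adjusted p 0.0660), which is 2.69-fold lower. The adjusted p was 0.0446 without wild type 1, 0.0231 without wild type 2 and 0.0270 with the slide as a block. Of the 8 fits that left out 1 array only 2 passed, and without any other array the adjusted p lay between 0.126 and 0.189. It was 0.0822 with quantile normalization and 0.132 with values floored at the background bound. Over all the alternatives Gadd45a passed under 7. The difference was -1.17 within slide 1 and -1.69 within slide 2.

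Btg2, an antiproliferative p53 target that recruits messenger RNA deadenylases, measured 12.52, 12.75, 12.62 and 12.31 in lymphoma, against 12.51, 13.77, 13.70 and 13.80 in wild type. Wild type 1 lay among the lymphomas, and the other controls were close together above them. The difference was -0.89 ± 0.30 (SE; limma adjusted p 0.177) and -1.21 without wild type 1 (adjusted p 0.00632). The other 2 Btg2 features had negative differences as well, and the largest negative one over its features was that of the brightest. Within slide 1 the difference was -0.51 and within slide 2 it was -1.28.

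The polo-like kinases Plk2 and Plk3, which take part in stress checkpoints rather than in driving mitosis, gave a similar picture. Plk2 measured 9.51, 9.74, 10.32 and 9.52 in lymphoma, against 9.30, 12.07, 10.87 and 10.58 in wild type. Plk3 measured 8.97, 9.26, 9.67 and 9.91 in lymphoma, against 9.37, 10.23, 10.62 and 10.61 in wild type. In both genes wild type 1 lay within or below the lymphoma range and the other controls lay above it. With 8 arrays the differences were -0.93 ± 0.47 for Plk2 (limma adjusted p 0.389) and -0.75 ± 0.32 for Plk3 (adjusted p 0.296). Without wild type 1 they were -1.40 (adjusted p 0.0394) and -1.03 (adjusted p 0.0437).

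Sestrins restrain mTORC1 and oxidative stress. Sesn1 measured 12.30, 12.63, 11.93 and 12.10 in lymphoma, against 13.14, 12.26, 12.87 and 13.87 in wild type. Sesn2 measured 9.93, 10.96, 10.26 and 10.86 in lymphoma, against 11.54, 12.30, 10.88 and 10.74 in wild type. In each gene the groups overlapped through controls that dipped into the lymphoma range, wild type 2 for Sesn1 and wild type 3 and 4 for Sesn2. The differences were -0.80 ± 0.32 for Sesn1 (limma adjusted p 0.271) and -0.86 ± 0.36 for Sesn2 (adjusted p 0.290), and wild type 1 did not stand below the other controls in either. The slides differed in size: Sesn1 gave -0.23 within slide 1 and -1.36 within slide 2, and Sesn2 gave -1.47 and -0.25. All 3 Sesn1 features were lower by value, and the dimmest of them differed by -1.05 (adjusted p 0.0612; 0.0178 without wild type 1).

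Zmat3, a zinc finger RNA-binding protein induced by p53, measured 9.11, 9.86, 9.93 and 9.36 in lymphoma, against 9.25, 7.81, 7.91 and 8.40 in wild type. Only wild type 1 reached into the lymphoma range. The difference was 1.23 ± 0.33 (SE; limma adjusted p 0.0952), 2.34-fold higher, and 1.53 without wild type 1 (adjusted p 0.00687). It was 0.96 within slide 1 and 1.49 within slide 2. With the mean of its 2 features, where the adjustment ran over 19087 genes, it passed at an adjusted p of 0.0483. However, the dimmer feature was at background on 7 of 8 arrays and above it in lymphoma 1. Ccng1, a cyclin that works with phosphatase 2A to regulate Mdm2, differed by 0.76, Ddit4, an inhibitor of mTORC1, by 0.67 and the antiproliferative gene Tob1 by 0.45, with adjusted p values between 0.433 and 0.568.

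**Figure D2:**
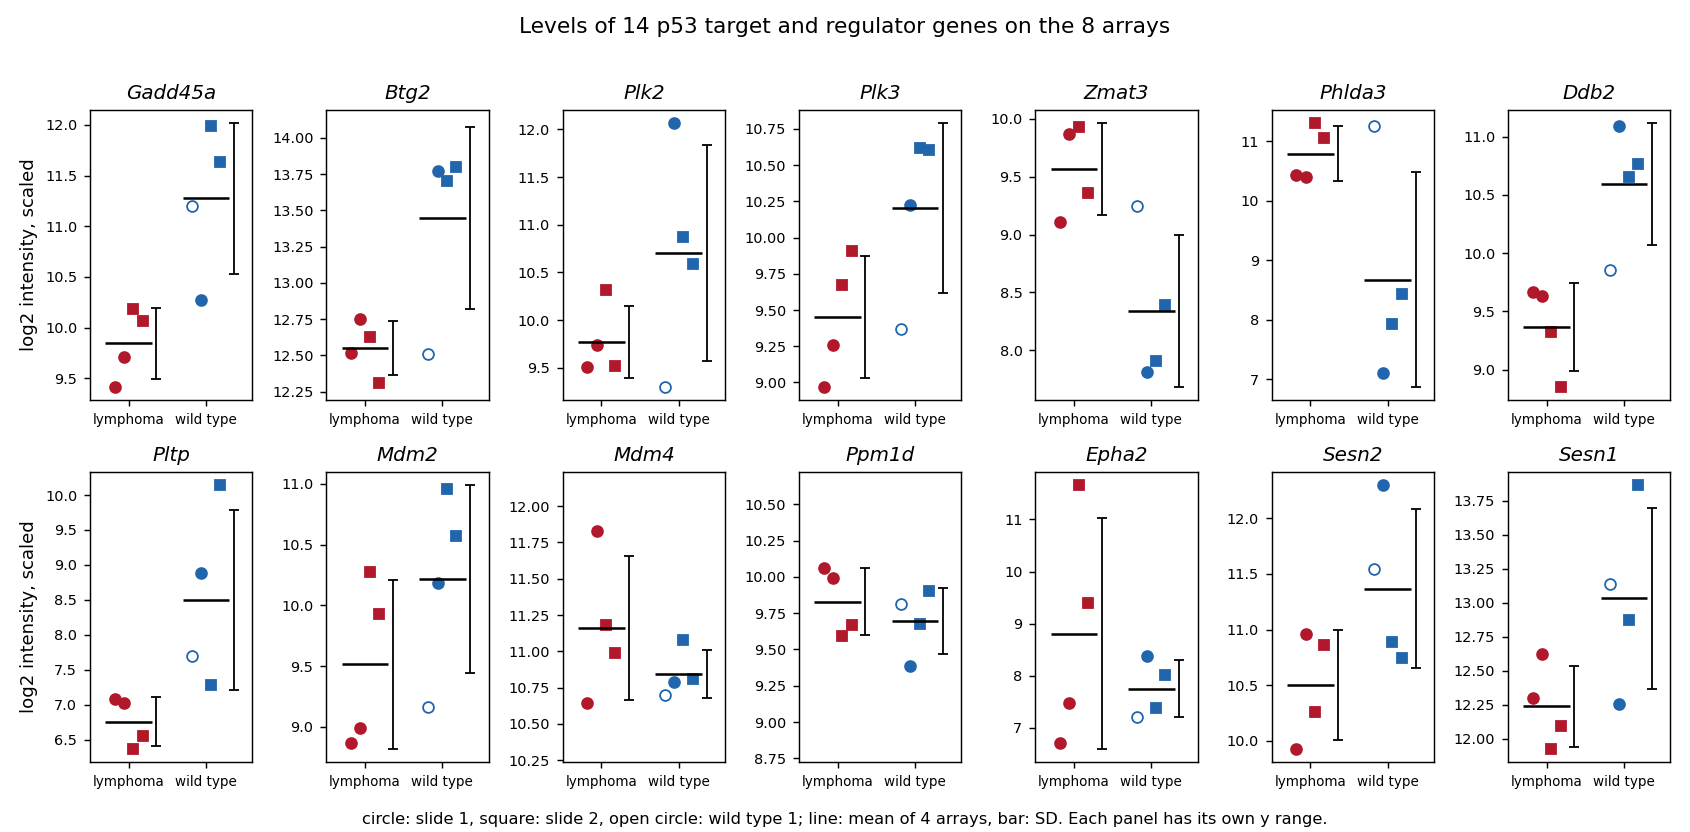
Scaled log2 intensity on each of the 8 arrays for the 14 genes given in full, with lymphoma in red and wild type in blue, circles for slide 1 and squares for slide 2. Horizontal lines are means and bars are SD (n = 4), and each panel has its own vertical range. The open circle is wild type 1, which sits among or beside the lymphomas for Btg2, Plk2, Plk3, Zmat3, Phlda3 and Ddb2 and between the other controls for Gadd45a.

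Immediate early genes answer growth factor and handling signals within minutes, and Gadd45a, Btg2, Plk2 and Plk3 are themselves known to be induced rapidly by such signals. Of 16 immediate early genes Egr1, Egr2 and Jun fell and 0 rose (0.817% of all genes were called higher and 1.27% lower), with a median difference of -1.02. Without wild type 1, 9 were lower and 1, Atf3, was higher (3.87% and 4.28% of all genes). Egr1 averaged 11.55 ± 0.42 in lymphoma and 13.96 ± 0.90 in wild type (SD, n = 4), and Jun averaged 10.84 ± 0.29 in lymphoma and 12.65 ± 0.80 in wild type. Egr2 averaged 10.80 ± 0.26 in lymphoma and 12.67 ± 0.92 in wild type (limma adjusted p 0.0378), and its call ended under quantile normalization (0.0573), with the mean of its features (0.0535) and without any 1 array other than wild type 1 (0.0779 to 0.125). The Egr1 and Jun calls ended without lymphoma 1, lymphoma 4, wild type 3 or wild type 4, and that of Jun also without lymphoma 2, lymphoma 3 or wild type 2, with a highest adjusted p of 0.0683 for Egr1 and 0.112 for Jun. Atf3, a stress-induced member of the list, ran the other way, at 15.23 ± 0.30 in lymphoma and 13.17 ± 1.17 in wild type (limma adjusted p 0.0523, and 0.00208 without wild type 1). Over the list wild type 1 was below the other controls by a median of 0.70 on the log2 scale. The part of this list in the values of the p53 genes was not tested.

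In the death arm, 5 of 6 genes were higher in lymphoma by value (56.7% of all genes were), with a median of 0.32, and 0 passed. For Aen, Trp53inp1 and Eda2r this depended on the feature, as their other feature differed by -0.78, -0.17 and -0.11. Phlda3, which blocks membrane recruitment of the survival kinase Akt, had the largest difference of all 31 genes. It measured 10.43, 10.39, 11.31 and 11.05 in lymphoma, against 11.26, 7.10, 7.92 and 8.43 in wild type. Wild type 1 was higher than 3 of the lymphomas, while wild type 2, 3 and 4 lay below every lymphoma and wild type 2 was at background. The difference was 2.12 ± 0.69 (SE; limma adjusted p 0.169), and 2.98 without wild type 1 (adjusted p 0.00055). Within slide 1, which holds wild type 1, it was 1.24, and within slide 2 it was 3.01 (adjusted p 0.0116).

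Trp53inp1, a stress protein that promotes p53 phosphorylation and autophagy, measured 12.56, 13.10, 13.30 and 12.90 in lymphoma, against 13.34, 11.82, 12.84 and 11.82 in wild type, and wild type 1 was the highest array. Its difference was 0.51 (95% interval -0.25 to 1.27). Ei24, a membrane protein linked to autophagy, differed by 0.27 and Aen, an exonuclease, by 0.14. Eda2r, a receptor of the TNF receptor family, was at background on all 4 wild type arrays and 3 lymphoma arrays. Perp, a membrane protein of desmosomes and cell death, was at background on all 4 lymphoma arrays and measured between 7.27 and 7.96 in wild type. Set against the background bound its mean was 1.15-fold lower in lymphoma. The groups overlapped through lymphoma 2, at 7.31, and the 95% interval of the difference, -1.01 to 0.035, included 0 (limma adjusted p 0.381).

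Among DNA repair genes Ddb2 stood apart from its group. Ddb2, the damage-binding protein that starts repair of ultraviolet lesions, measured 9.66, 9.63, 9.32 and 8.85 in lymphoma, against 9.86, 11.09, 10.65 and 10.77 in wild type. The groups did not overlap, and wild type 1 was the control closest to the lymphomas. The difference was -1.22 ± 0.29 (SE; limma adjusted p 0.0650), 2.34-fold lower, and -1.47 without wild type 1 (adjusted p 0.00640). It was -0.82 within slide 1 and -1.62 within slide 2. With the values as deposited it passed, at an adjusted p of 0.0463. Of the 8 fits that left out 1 array only that without wild type 1 passed, and the others gave between 0.106 and 0.196. The limma adjusted p was 0.0681 with quantile normalization, 0.0759 with the slide as a block and 0.111 with values floored at the background bound. Over all the alternatives Ddb2 passed under 4. Xpc, the partner of Ddb2 in damage recognition, differed by 0.25, the nuclease Ercc5 by 0.14, the translesion polymerase Polk by 0.28 and the ribonucleotide reductase subunit Rrm2b by 0.06, with adjusted p values between 0.618 and 0.952.

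Of the metabolic genes, Pltp, which transfers phospholipids between lipoproteins, measured 7.08, 7.02, 6.37 and 6.56 in lymphoma, against 7.70, 8.88, 7.29 and 10.15 in wild type. All 4 lymphoma arrays were at background and all 4 controls above it, with wild type 4 far above the others. The difference as measured was -1.75 ± 0.51 (SE; limma adjusted p 0.124), and -2.01 without wild type 1 (adjusted p 0.0433). Set against the background bound Pltp was at least 2.38-fold lower in lymphoma. With values floored at that bound the limma adjusted p was 0.449. Pltp is also known as a product of macrophages, and the macrophage markers Mpeg1, Fcgr1, C1qa and Lyz2 fell in the same comparison. Mpeg1 averaged 12.11 ± 0.29 in lymphoma and 13.66 ± 0.13 in wild type (SD, n = 4). Of these 4 calls that of Mpeg1 held in all 8 fits that left out 1 array. Those of Fcgr1, C1qa and Lyz2 ended in several of them, all 3 without lymphoma 4, wild type 3 or wild type 4. With the mean of all features of the gene, the calls of Fcgr1 (limma adjusted p 0.103) and Lyz2 (0.221) ended as well. Quantile normalization ended those of Lyz2 (0.0835) and C1qa (0.0551), and trend and robust estimation that of Lyz2 (0.0673). The part of these markers in the value of Pltp was not tested. Tigar, a phosphatase that lowers glycolytic flux, differed by 0.52 (95% interval -0.04 to 1.08), and the reductase Dcxr by -0.27 (95% interval -0.91 to 0.37).

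Of the 2 surface genes, Epha2 was the most uneven within the lymphomas. This receptor tyrosine kinase measured 6.71, 7.47, 11.66 and 9.39 in lymphoma, against 7.20, 8.38, 7.39 and 8.02 in wild type. Lymphoma 3 and 4, on slide 2, lay above every control, lymphoma 1 lay below every control and at background, and lymphoma 2 lay among them. The lymphoma SD was 2.21, and the range of 4.95 between lymphomas was the widest of the 31 genes. The difference was 1.06 ± 0.83 (SE; limma adjusted p 0.605), 0.11 without lymphoma 3 and 1.76 without lymphoma 1. In wild type the slides differed by -0.09, so the gap of 3.44 between slides in lymphoma was not shared by the controls. Cd82, a tetraspanin known as a metastasis suppressor, measured 11.55, 11.35, 11.31 and 11.56 in lymphoma, against 12.42, 11.61, 11.58 and 12.01 in wild type. The groups did not overlap, but lymphoma 4 and wild type 3 nearly met, and the difference was -0.46 ± 0.24 (SE; limma adjusted p 0.398).

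**Figure D3:**
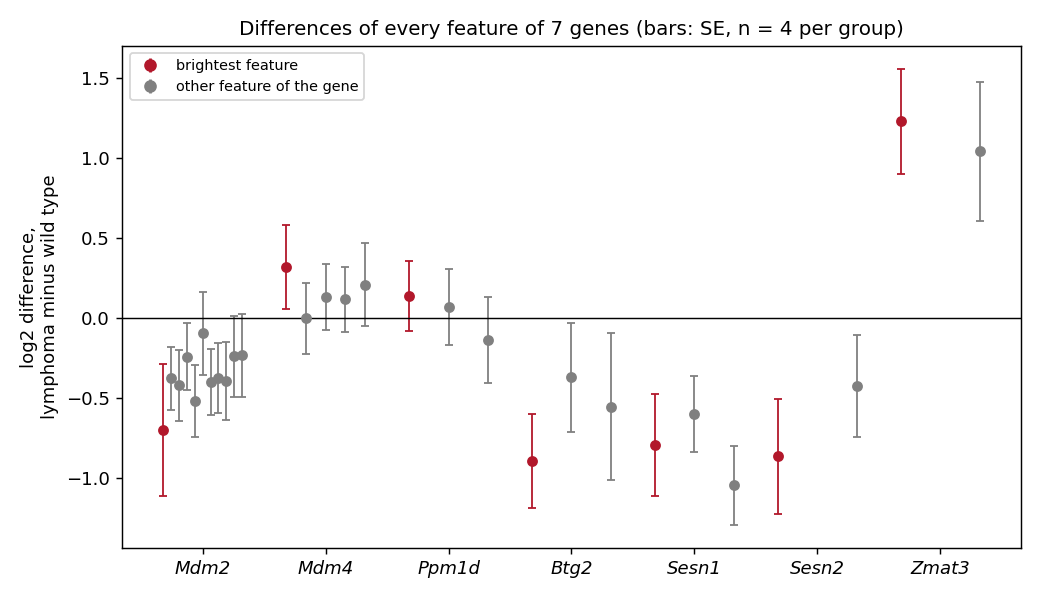
Log2 difference, lymphoma minus wild type, of every feature of 7 genes with several features, with the brightest feature in red, the others in grey and bars for the SE (n = 4 per group). The 11 Mdm2 features and the 3 Sesn1 features all lie below 0, both Zmat3 features lie above it, and the Mdm4 and Ppm1d features lie around it.

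Several features were listed for 19 of the 31 genes. Of their 35 other features, 26 (74.3%) had the sign of the brightest one. Mdm2 alone gave 11 of the 66 features of the 31 genes, all of the same sign and possibly repeated spots. The share is therefore no count of independent readings. In limma 0 of the 66 features passed, the lowest adjusted p being 0.0612 for a Sesn1 feature. The opposite sign was found for the other features of Aen, Eda2r, Rchy1, Rrm2b, Trp53inp1 and Xpc, and for 1 feature each of Dcxr, Mdm4 and Ppm1d. These are genes whose brightest feature differed by 0.51 or less in size. The lymphomas were closer to each other than the controls were: the median SD of the 31 genes was 0.35 in lymphoma and 0.58 in wild type, beside 0.28 in lymphoma and 0.42 in wild type over all genes. Without wild type 1 the median SD of the controls was 0.50. The direction of the difference was the same within both slides for 21 of the 31 genes and in all fits that left out 1 array for 27.

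Other genes of the pathway were read from lists that were drawn up with earlier results of these data known. Of 33 further genes listed as p53 targets 27 were measured, and the link of each to p53 was not tested here. Of the 27, 5 fell and 0 rose, against 1.27% of all genes called lower and 0.817% called higher. Fas, the death receptor, averaged 8.53 ± 0.43 in lymphoma and 10.48 ± 0.71 in wild type (SD, n = 4; limma adjusted p 0.0236). Gadd45b averaged 10.63 ± 0.14 in lymphoma and 12.06 ± 0.64 in wild type (adjusted p 0.0393), and its relative Gadd45g averaged 12.41 ± 0.19 in lymphoma and 13.72 ± 0.36 in wild type (adjusted p 0.0237). Ccng2, an atypical cyclin, differed by -1.39 (adjusted p 0.0320) and Tap1, the peptide transporter of antigen presentation, by -1.16 (adjusted p 0.0399). All 3 Gadd45 genes were lower by value, and their groups did not overlap. All 5 passed without wild type 1. With trend and robust estimation the Tap1 call ended (limma adjusted p 0.0568). All 5 calls ended when lymphoma 1, lymphoma 4, wild type 3 or wild type 4 was left out, and some ended without lymphoma 2, lymphoma 3 or wild type 2, with adjusted p values between 0.0279 and 0.138 over these fits.

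Bax was not analysed here. Cdkn1a, the p21 inhibitor of cyclin-dependent kinases and the best known arrest target, averaged 8.13 ± 0.65 in lymphoma and 7.48 ± 0.67 in wild type (SD, n = 4; limma adjusted p 0.467). Among the BH3-only killers, Bbc3, which encodes Puma, averaged 13.06 ± 0.23 in lymphoma and 11.92 ± 1.04 in wild type (adjusted p 0.233), while Pmaip1, which encodes Noxa, differed by 0.10 (adjusted p 0.931). Bbc3 followed the pattern of Phlda3: wild type 1 measured 13.47, and without it the difference was 1.65 (adjusted p 0.00151). Rps27l, a ribosomal protein relative induced by p53, did so too, at 14.78 ± 0.47 in lymphoma and 12.88 ± 1.47 in wild type, with 15.04 in wild type 1 and a difference of 2.62 without it (adjusted p 0.000523). In that fit 5 of the 27 genes of this list were higher and 5 lower, against 4.28% of all genes called higher and 3.87% called lower. The higher ones were Bbc3, Rps27l, Sfn, Slc19a2 and Gpx1.

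Of 19 measured kinases, cofactors and relatives that act on p53, 0 passed, with a median of -0.11 and 12 of 19 lower by value. The largest difference was that of Trp53bp2, which encodes the p53 cofactor ASPP2, at 1.27 ± 0.32 (limma adjusted p 0.0796). Without wild type 1 it was 1.61 (adjusted p 0.00193), and Trp53bp2 was then the 1 gene of the 19 that passed. The damage kinases Atm, Atr, Chek1 and Chek2 differed by -0.18, -0.21, 0.45 and 0.10.

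**Figure D4:**
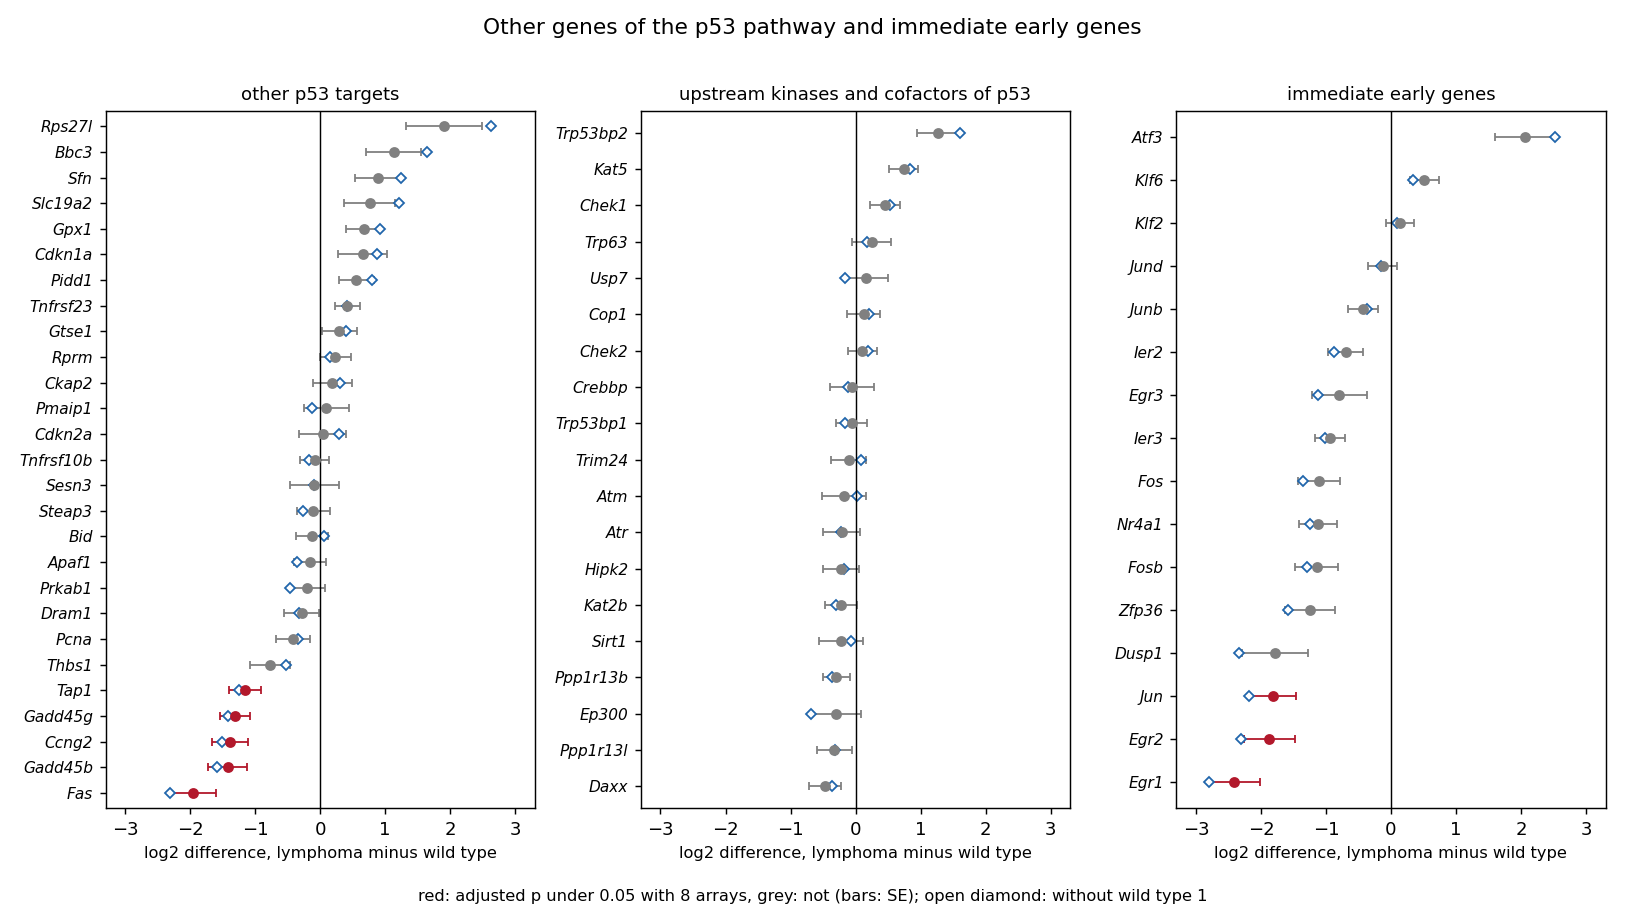
Log2 difference, lymphoma minus wild type, of other genes listed as p53 targets, of upstream kinases and cofactors and of immediate early genes. Circles with SE bars come from 8 arrays (n = 4 per group), red where the adjusted p was under 0.05, and open diamonds leave out wild type 1. The 5 red points among the targets and the 3 among the immediate early genes all lie below 0.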

How the data were processed

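Messenger RNA of B splenocytes was measured on 1-colour Agilent mouse arrays, 1 for each of 4 lymphoma and 4 wild type mice. The RNA input was 0.5 µg with Cy3 as the dye, per the labels. Values for 45220 features were deposited by the authors as log2 intensities. The sources used here do not give the scanner, background correction or normalization. From the values, 2 to the power of a value steps evenly within an array, so each array was scaled by a factor that remains unknown. No centring per feature was applied.

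Gene names come from the platform annotation: 33709 features have a gene, 33653 of them 1 symbol. Arrays were brought to a common 75th percentile. R 4.3.3 and limma 3.58.1 were used, in a two-sided test with the group alone in the model, no filter on dim features, and Benjamini-Hochberg adjustment over 33709 features. The background bound of an array is the 95th percentile of 1114 features for olfactory and vomeronasal receptors, a choice made after values were seen. A fold against a group wholly at background is a lower bound, set on each array against the bound or, if higher, the measured level. None of the 31 genes came within 80% of the highest intensity of an array.

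The members, roles and lists were chosen with earlier results of these data known. Members given in full are those with an adjusted p under 0.05 with 8 arrays or without wild type 1, then Mdm2, Mdm4 and Ppm1d, then the largest differences up to 14 genes. Of the other lists, up to 3 called genes with the largest change are named, or the largest difference where none was called, with Cdkn1a, Bbc3 and Pmaip1. Other genes named from those lists, and the full values of Trp53inp1 and Cd82, were chosen after their values were seen. The labels number the mice but do not describe litters or preparation days, so the p-values measure the spread between these samples, and precision is limited by 4 arrays in a group. The fit was tested on simulated data. Alternatives were other scalings, a filter on dim features, a floor at the background bound (added after the values were seen), trend and robust estimation, array weights, slide and replicate number as blocks, each slide alone, the mean of all features, and leaving out each array.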

Additional observations from a re-analysis of the deposited data

Results flagged for a closer look

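Btg2 in wild type 1 measured 12.51, against 13.70 to 13.80 in the other wild type arrays, a gap that was 0.926 of the range of the group. This ratio is above Dixon's critical value for 4 samples at the 95% level. Of 28 groups examined, from the 14 genes given in full, this was the only one. Chance gives such a gap in about 1 group in 20 of unselected groups. Btg2 and others of the 14 were chosen by the fit without wild type 1, so that rate does not apply to a gap of wild type 1.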

How the results depend on the processing

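The median difference of the 31 genes moved by less than the median SD of a single gene between mice under all 20 alternatives. That margin is wide for a median over 31 genes, so it is no measure of stability. The median was 0.14 with 8 arrays, and negative within each slide alone (-0.18 within slide 1 and -0.03 within slide 2) and with the mean of all features (-0.03). Against 0 calls in the fit of 8 arrays, the number of genes called higher was 2 with array weights, 1 within slide 2 alone and 1 with the mean of all features, and between 0 and 2 with 1 array left out. The number called lower was 1 with the values as deposited, 1 with trend and robust estimation, 4 with array weights, 1 with the slide as a block, 1 with the replicate block and 3 within slide 2 alone, and between 0 and 6 with 1 array left out. Over all genes 398 passed (156 higher and 242 lower, or 116 higher and 301 lower with the values as deposited), against 1441 with array weights, 0 within slide 1 alone (1090 at an unadjusted p under 0.05 in limma), 1288 within slide 2 alone, 159 with the floor at the background bound and between 74 and 1556 with 1 array left out. Within slide 1 alone Epha2 differed by -0.70, and within slide 2 alone Ppm1d differed by -0.16, each against a positive difference with 8 arrays. Why these values changed was not tested. The replicate numbers showed no consistent pairing: deviations from the group means correlated at 0.18, -0.04, 0.13 and -0.02 for numbers 1 to 4. Arrays of numbers 1 and 3 correlated best with their own number in both directions, and those of numbers 2 and 4 did not. With 4 arrays in a group this check cannot decide whether the mice were paired. The replicate block brought the call of Gadd45a (adjusted p 0.0337). Genes near the background bound, such as Trp73, Eda2r, Perp and Pltp, are limited by signal.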
